A study of Homo sapiens with 24 samples.

Results

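PC3 cells collected after 48 h with Siomycin A were compared with PC3 cells collected after 24 h with its solvent, DMSO, by gene expression on Illumina bead arrays. PC3 is an established human prostate cancer line that grows without androgen signalling and lacks functional p53. Siomycin A, a thiopeptide, blocks proteasome activity and has been used to reduce FOXM1, a factor that drives mitotic genes, and the kinase MELK. The comparison used 6 of the 24 arrays in the study, 3 in each group. The others held PC3 after 24 h with Siomycin A and after 48 h with DMSO, and the same 4 conditions in LNCaP, an androgen-responsive prostate cancer line, with 3 arrays in each of the 8 groups. The dose is 0.5 microM in the treatment protocol and 5 microM in the sample titles, and nothing in the labels settles which was used. The labels do not say if replicates came from separate cultures, and the p-values reflect only how far arrays differed, which may be technical.

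The gene table of the platform held 20045 genes, each represented by 1 probe, and 13344 of them had a probe above background on at least 3 of the 24 arrays and were tested. Outside the Siomycin 48 h group, 194 of them had fewer than 3 such arrays, so they entered with the help of the treated arrays. Values are log2 normalised intensities, differences are Siomycin 48 h minus DMSO 24 h with limma's standard error, and a gene was called at a Benjamini-Hochberg adjusted p under 0.05. The groups compared differ in compound and in 24 h of further culture, and this comparison alone cannot tell the effects of both apart. The DMSO arrays themselves changed between 24 h and 48 h, with 3774 genes called (28.3%). Many results are therefore given with DMSO 48 h minus DMSO 24 h and Siomycin 48 h minus DMSO 48 h, which share arrays with the main comparison and are shown side by side only. In bulk RNA, fewer cells of a type and less RNA per cell cannot be told apart.

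The 10 PC3 marker genes were above background on all 6 arrays, with the highest levels in VIM, an intermediate filament protein (13.33 at DMSO 24 h), and PLAU, the urokinase protease (13.01). Of the LNCaP markers tested, KLK2, ACP3 and FOLH1 were below background on all 6 arrays, and KLK3, the prostate-specific antigen, was below it on the 3 DMSO 24 h arrays. Other LNCaP markers, HOXB13, SLC45A3 and STEAP2, were above background on all 6 arrays, with means of 9.04, 7.86 and 6.96 at DMSO 24 h. The LNCaP markers were thus not absent as a set. Siomycin 48 h replicate 3 was the dimmest array, with a mean intensity of 314.4 (up to 498.8 elsewhere) and 17010 probes above background against 18875 to 19565 on the DMSO 24 h arrays. Without it, 44 mitosis genes were lower, 41 replication genes were lower and 1 higher, 30 ATF4 genes were higher and 5 lower, and 18 NRF2 genes were higher and 1 lower. Proteasome genes then counted 15 higher and 9 lower, and interferon-induced genes 7 higher and 13 lower.

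Several pathways that frame these results are well described. FOXM1 drives the genes of mitosis, many of which carry a short CHR element near the start site, and MELK is among its targets. Amino acid shortage, faulty folding in the endoplasmic reticulum and proteasome inhibition all raise translation of ATF4, which binds CARE elements of genes for amino acid supply and stress signalling. NRF2 is held down by KEAP1 and proteasomal degradation and acts on ARE elements of antioxidant genes, and its relative NRF1, made by NFE2L1, drives proteasome subunit genes when proteasome activity drops. Interferon-induced genes carry ISRE elements.

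The promoters that carry these elements are shown for the called members with the largest changes, to let the mitotic, ATF4 and interferon results below be read beside their sequences. The windows are 300 bases from RefSeq (GRCh38.p14), 250 before to 50 after the start site, printed 5′ to 3′ on the gene's strand. Capitals mark the CHR letters TTTGAA in HMMR (chr5:163460382-163460681, plus strand) and KIF11 (chr10:92592880-92593179, plus strand). They mark the CARE letters TGATGNAA in ATF3 (chr1:212565157-212565456, plus strand) and SLC3A2 (chr11:62881449-62881748, plus strand), and the ISRE, GAAA repeated after any pair of bases, in OAS3 (chr12:112938224-112938523, plus strand) and SAMD9 (chr7:93117930-93118229, minus strand). Matches were searched on both strands, so a run of capitals may read as the reverse complement.
HMMR: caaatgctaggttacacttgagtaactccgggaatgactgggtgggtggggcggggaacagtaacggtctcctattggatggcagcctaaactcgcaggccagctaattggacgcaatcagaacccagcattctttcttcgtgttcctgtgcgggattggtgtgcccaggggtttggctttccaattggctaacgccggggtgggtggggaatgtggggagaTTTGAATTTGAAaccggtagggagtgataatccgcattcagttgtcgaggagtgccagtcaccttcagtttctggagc
KIF11: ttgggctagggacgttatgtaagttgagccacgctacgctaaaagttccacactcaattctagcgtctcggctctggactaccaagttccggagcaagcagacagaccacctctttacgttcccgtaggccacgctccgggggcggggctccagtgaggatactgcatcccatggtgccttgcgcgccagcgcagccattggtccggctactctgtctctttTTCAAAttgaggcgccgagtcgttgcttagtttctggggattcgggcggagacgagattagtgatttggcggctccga
ATF3: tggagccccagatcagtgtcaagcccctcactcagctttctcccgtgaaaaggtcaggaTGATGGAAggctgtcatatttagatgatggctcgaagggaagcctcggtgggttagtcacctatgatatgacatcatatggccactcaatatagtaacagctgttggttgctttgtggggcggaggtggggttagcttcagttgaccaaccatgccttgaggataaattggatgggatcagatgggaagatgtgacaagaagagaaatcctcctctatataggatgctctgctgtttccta
SLC3A2: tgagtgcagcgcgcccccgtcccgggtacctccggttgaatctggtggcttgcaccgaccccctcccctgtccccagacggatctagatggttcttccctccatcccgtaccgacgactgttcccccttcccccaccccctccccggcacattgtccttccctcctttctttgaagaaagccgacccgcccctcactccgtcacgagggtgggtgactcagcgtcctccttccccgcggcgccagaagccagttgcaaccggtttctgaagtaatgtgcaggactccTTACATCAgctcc
OAS3: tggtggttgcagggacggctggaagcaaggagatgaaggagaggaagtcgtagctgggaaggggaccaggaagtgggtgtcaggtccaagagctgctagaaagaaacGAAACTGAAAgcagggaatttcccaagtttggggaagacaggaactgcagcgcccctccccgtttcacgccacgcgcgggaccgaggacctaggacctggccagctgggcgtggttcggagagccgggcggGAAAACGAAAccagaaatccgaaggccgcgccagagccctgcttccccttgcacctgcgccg
SAMD9: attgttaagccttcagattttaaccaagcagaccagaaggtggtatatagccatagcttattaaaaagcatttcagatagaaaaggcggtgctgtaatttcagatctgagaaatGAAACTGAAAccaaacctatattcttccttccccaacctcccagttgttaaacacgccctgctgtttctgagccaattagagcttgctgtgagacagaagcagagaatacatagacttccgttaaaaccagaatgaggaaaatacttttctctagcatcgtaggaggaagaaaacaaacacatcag

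Among the 10613 tested genes with a promoter in the table, 10.3% held CHR, 1.95% CARE and 2.70% ISRE in this window. CHR stood in 27 of 41 promoters of the mitosis list (65.9%), CARE in 11 of 40 of the ATF4 list (27.5%) and ISRE in 19 of 31 of the interferon list (61.3%). The ARE letters TGACNNNGC stood in 7 of 22 promoters of the NRF2 list (31.8%), against 15.1% of tested genes. The ARE share was as high or higher in other lists, with 57.1% for metallothioneins and zinc, 45.5% for ubiquitin, 35.1% for the proteasome and 34.5% for lysosome and autophagy. In HMMR and KIF11 the first CHR match began 28 bases before the start site. A match describes these letters and is no measure of binding.

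MELK, the mitotic kinase lowered by Siomycin A in earlier work, read 10.55, 10.73 and 10.57 on the DMSO 24 h arrays and 9.72, 9.53 and 9.59 on the Siomycin 48 h arrays. All 3 treated arrays lay below all 3 controls, and MELK fell by 1.00 ± 0.10 on the log2 scale, 2.01-fold (adjusted p = 1.1e-07). In DMSO alone it fell by 0.70 between 24 h and 48 h, and Siomycin was 0.30 lower than DMSO at 48 h. FOXM1 read 8.42, 8.21 and 8.43 at DMSO 24 h and 7.56, 7.73 and 7.54 at Siomycin 48 h. The groups did not overlap, and it fell by 0.74 ± 0.12 (adjusted p = 2.4e-05). Its DMSO difference was -0.54, and its difference from DMSO at 48 h was -0.20 (adjusted p = 0.18), which did not pass the test.

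Across the array, 6507 of 13344 genes were called (48.8%), 2770 higher (20.8%) and 3737 lower (28.0%), and 5967 were called without Siomycin 48 h replicate 3. At 2-fold or more, 509 genes were higher (3.81%) and 932 lower (6.98%), and at 4-fold 61 were higher and 68 lower. The median of all tested genes was -0.04. When arrays were centred on their median in place of quantile normalisation, that median moved to -0.36 and the share of called genes that were higher went from 42.6% to 10.1%, with 678 higher and 6036 lower. A direction is therefore firm only where it holds under both scalings, and lists whose median turned are named as such. The groups did not overlap for 7429 genes (55.7%), of which 6215 were called. Siomycin 48 h against DMSO 48 h called 6105 genes (45.8%), 2598 higher (19.5%) and 3507 lower (26.3%), and DMSO 48 h against DMSO 24 h called 1922 higher (14.4%) and 1852 lower (13.9%).

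**Figure D1:**
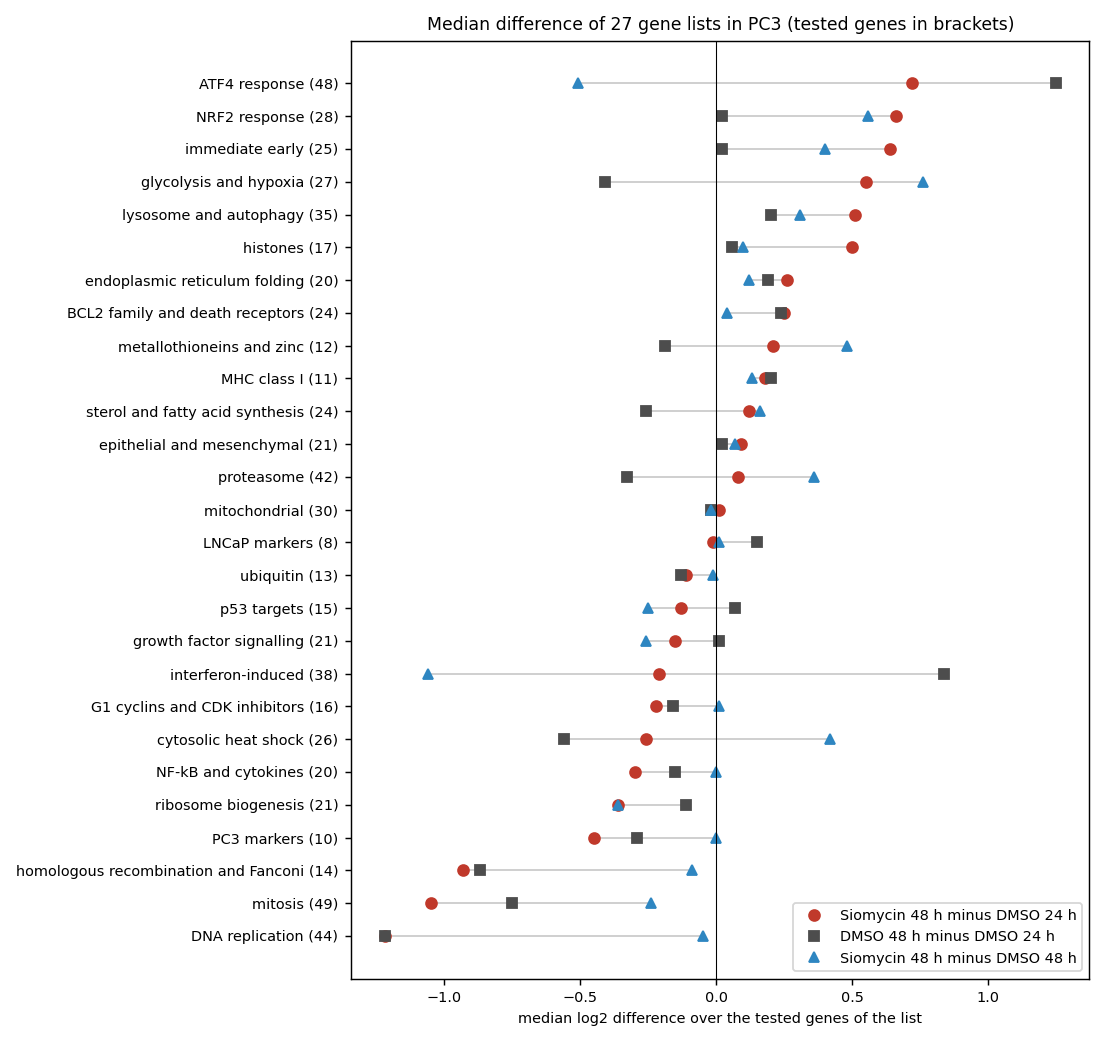
Median log2 difference over the tested genes of each of the 27 lists (tested genes in brackets), for Siomycin 48 h minus DMSO 24 h (circles), DMSO 48 h minus DMSO 24 h (squares) and Siomycin 48 h minus DMSO 48 h (triangles), which share arrays. The replication and mitosis lists had medians of -1.22 and -1.05 and the ATF4 list 0.72, while the interferon list was at 0.84 in DMSO and -0.21 in the main comparison. Centring on array medians turned the sign for the proteasome, MHC class I, sterol and fatty acid synthesis, endoplasmic reticulum folding, metallothioneins and zinc, histones, BCL2 family, epithelial and mesenchymal, mitochondrial and LNCaP marker lists, and brought lysosome and autophagy to 0.00. It also moved the median of all tested genes from -0.04 to -0.36. Relative to that median these lists kept their side, except sterol and fatty acid synthesis (0.16 to 0) and epithelial and mesenchymal (0.13 to -0.11).

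Most genes of cell division fell. Of 49 tested genes of mitosis, 44 fell and 0 rose (median -1.05, all genes -0.04), with 45 lower in DMSO alone (median -0.75) and 21 lower and 7 higher against DMSO at 48 h. All 12 kinetochore and checkpoint genes and all 10 spindle motors and microtubule proteins fell, with medians of -1.2 and -1.34. KIF11, the motor that pushes spindle poles apart, read 9.05, 8.98 and 8.92 at DMSO 24 h and 7.03, 6.85 and 7.0 at Siomycin 48 h. The groups lay far apart, and KIF11 fell by 2.03 ± 0.13 (adjusted p = 7.1e-11), of which the DMSO difference was -1.19 and the difference from DMSO at 48 h -0.84. HMMR, a spindle-associated hyaluronan receptor, fell by 2.04 ± 0.10 (adjusted p = 2.6e-12), with -0.58 in DMSO and -1.46 against DMSO at 48 h. ASPM, a spindle pole protein, fell by 1.98 ± 0.15, with -1.15 in DMSO. AURKB, the kinase of the chromosomal passenger complex, fell by 1.64 ± 0.14, with -1.4 in DMSO and -0.24 against DMSO at 48 h (adjusted p = 0.17).

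Not all mitotic genes were lower than in DMSO at 48 h. CDK1, the kinase that starts mitosis, read 11.91, 11.85 and 11.82 at DMSO 24 h and 11.04, 11.09 and 11.07 at Siomycin 48 h. It fell by 0.79 ± 0.13 from DMSO 24 h (adjusted p = 3.1e-05), yet it was 0.55 higher than in DMSO at 48 h (adjusted p = 0.0014), with -1.35 in DMSO alone. CDC25B, a phosphatase that activates CDK1, showed the reverse, with -1.11 ± 0.08 in the main comparison, 0.22 in DMSO (adjusted p = 0.053) and -1.32 against DMSO at 48 h. INCENP, the scaffold of the passenger complex, had -0.02 ± 0.12 and did not pass the test (adjusted p = 0.91), while it had -0.78 in DMSO and 0.76 against DMSO at 48 h.

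Replication genes fell as widely. Of 44 tested, 41 fell and 0 rose (median -1.22), and DMSO alone gave the same count, 41 lower, and the same median, -1.22. Against DMSO at 48 h 11 were higher and 8 lower (median -0.05). UHRF1, which guides DNA methylation behind the fork, read 11.43, 11.25 and 11.42 at DMSO 24 h and 9.21, 9.27 and 9.12 at Siomycin 48 h. UHRF1 fell by 2.16 ± 0.15 (adjusted p = 4.1e-10), and its difference in DMSO was -2.16 as well, with 0.00 against DMSO at 48 h (adjusted p = 1). E2F2, a transcription factor of S phase entry, fell by 2.53 ± 0.24, MCM10, which helps to activate the helicase, fell by 2.29 ± 0.25 and POLA1, the priming polymerase, by 2.10 ± 0.13. POLA1 was also lower than in DMSO at 48 h, by 1.19 (adjusted p = 1.6e-07). CDT1, the licensing factor, was not called (-0.37 ± 0.21, adjusted p = 0.16), although it had -1.68 in DMSO and 1.31 against DMSO at 48 h.

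Of 14 recombination, Fanconi and mismatch repair genes, 12 fell and 1 rose (median -0.93). In DMSO alone 11 fell (median -0.87), and against DMSO at 48 h 5 were lower and 3 higher (median -0.09). FANCI, of the Fanconi pathway, fell by 1.99 ± 0.15, with -0.91 in DMSO and -1.08 against DMSO at 48 h. BLM, a helicase of recombination, was below background on all 3 Siomycin 48 h arrays and was at least 3.07-fold lower there (adjusted p = 7.2e-10). PMS2, a mismatch repair protein, was the gene that rose, by 0.72 ± 0.10, but 1 of its other probes had -0.58 (adjusted p = 0.0035), and with median centring it had 0.06 and was not called.

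Regulators of the G1 phase split by role. Of 6 cyclins and kinases 5 fell and 0 rose, and of 5 kinase inhibitors 4 rose and 0 fell. In DMSO alone 4 of the cyclins and kinases fell and 3 of the inhibitors rose. CCND1, the cyclin D1 gene, read 13.18, 13.04 and 13.06 at DMSO 24 h and 11.67, 11.77 and 11.88 at Siomycin 48 h, a fall of 1.32 ± 0.08 (adjusted p = 8.9e-11), with -0.78 in DMSO and -0.54 against DMSO at 48 h. CDKN1B, the inhibitor p27, read 7.26, 7.17 and 7.14 against 8.71, 8.55 and 8.56 and rose by 1.42 ± 0.09 (adjusted p = 1.4e-10), with 0.44 in DMSO and 0.97 against DMSO at 48 h. In both genes every treated array lay on 1 side of every control. CDKN1C, the inhibitor p57, rose by 1.96 ± 0.26 and CDKN2D, the inhibitor p19, by 1.02 ± 0.10. CDKN1A, the inhibitor p21, rose by 0.53 ± 0.12, a direction that turned to -0.03 with median centring. CDKN2B, the inhibitor p15, was not called (-0.14 ± 0.16), but stood 2.46 higher at DMSO 48 h than at DMSO 24 h and 2.60 lower with Siomycin than with DMSO at 48 h. RBL1, a pocket protein that restrains E2F, was at least 3.71-fold lower, being below background on the Siomycin 48 h arrays, and TOB1, an antiproliferative protein, rose by 1.5 ± 0.08.

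**Figure D2:**
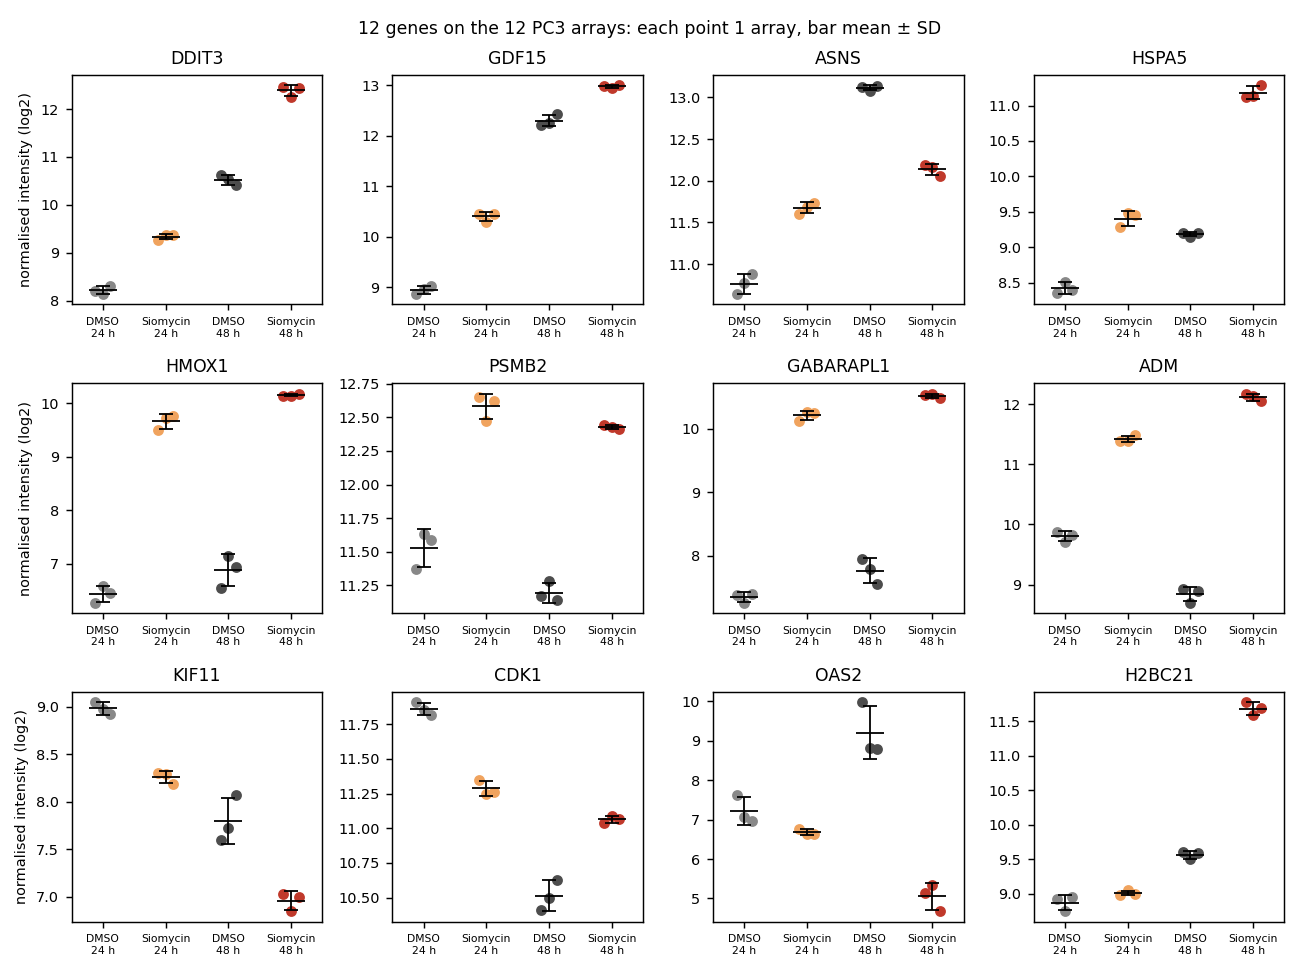
Log2 normalised intensity of 12 genes on the 12 PC3 arrays, with the 4 groups on the x axis, each point 1 array and the bars the mean ± SD of 3 arrays. DDIT3 lay between 8.14 and 8.30 at DMSO 24 h and between 12.26 and 12.47 at Siomycin 48 h, and CDK1 was lower at DMSO 48 h than at Siomycin 48 h.

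The ATF4 response was higher than at DMSO 24 h but mostly lower than at DMSO 48 h. Of 48 tested genes 32 rose and 5 fell (median 0.72, and 0.25 with median centring). DMSO alone raised 46 (median 1.25), and against DMSO at 48 h 8 were higher and 32 lower (median -0.51). The regulators stood highest, with 11 of 12 higher and a median of 1.69. DDIT3, the pro-death factor CHOP, read 8.21, 8.14 and 8.30 at DMSO 24 h and 12.47, 12.26 and 12.44 at Siomycin 48 h. No arrays overlapped, and DDIT3 rose by 4.18 ± 0.08, 18.1-fold (adjusted p = 3e-18), with 2.31 in DMSO and 1.87 against DMSO at 48 h. DDIT4, an inhibitor of mTORC1, read 7.59, 7.67 and 7.74 against 11.85, 11.85 and 11.86, a rise of 4.18 ± 0.09, of which DMSO alone gave 3.75. GDF15, a secreted stress cytokine, rose by 4.02 ± 0.09, 16.2-fold, and NUPR1, a stress-induced chromatin protein, by 3.04 ± 0.12. ATF4 itself rose by 1.28 ± 0.07 and was 0.25 lower than in DMSO at 48 h. Other ATF4 probes had 1.86 ± 0.11 (adjusted p = 2.8e-11) and 0.37 ± 0.26 (adjusted p = 0.28) in the main comparison. TRIB3, a pseudokinase target of CHOP, rose by 2.23 ± 0.08 yet was 1.15 lower than in DMSO at 48 h (adjusted p = 6.2e-10).

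Genes of amino acid supply showed this split in full. ASNS, asparagine synthetase, read 10.64, 10.77 and 10.88 at DMSO 24 h and 12.19, 12.16 and 12.06 at Siomycin 48 h. ASNS rose by 1.37 ± 0.08 (adjusted p = 1.3e-11), against 2.35 in DMSO alone, and stood 0.98 below DMSO at 48 h. Of 10 synthesis genes 6 rose and 1 fell, and 8 were lower than in DMSO at 48 h (median -1.02). CBS, of cysteine synthesis, was not called (0.21 ± 0.14, or 0.35 with adjusted p = 0.045 without Siomycin 48 h replicate 3), while it had 2.86 in DMSO and -2.65 against DMSO at 48 h. CTH, the next enzyme of that route, rose by 1.88 ± 0.11 and was 1.14 above DMSO at 48 h. Among transporters, SLC7A11, the cystine importer, read 4.86, 5.08 and 4.87 at DMSO 24 h, where 1 of 3 arrays was above background, and 8.10, 7.99 and 7.90 at Siomycin 48 h. SLC7A11 rose by 3.06 ± 0.10 (adjusted p = 1.1e-14), with 0.93 against DMSO at 48 h. SLC7A1, the arginine importer, went the other way, at -0.34 ± 0.10 in the main comparison (adjusted p = 0.0085), 1.35 in DMSO and -1.70 against DMSO at 48 h. All 11 tRNA synthetases rose in DMSO, 4 rose in the main comparison, and 10 were lower than in DMSO at 48 h.

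Genes of the endoplasmic reticulum differed by role. Of 11 chaperones 9 rose and 0 fell (median 0.49), and of 5 degradation genes 1 rose and 3 fell. The median of the list, 0.26, turned to -0.18 with median centring. HSPA5, the chaperone BiP, read 8.35, 8.51 and 8.40 at DMSO 24 h and 11.12, 11.14 and 11.29 at Siomycin 48 h. The groups lay far apart, and HSPA5 rose by 2.76 ± 0.11, 6.79-fold (adjusted p = 2.6e-13), with 0.77 in DMSO and 2.0 against DMSO at 48 h. DNAJB9, a cochaperone of BiP, rose by 2.44 ± 0.14. EDEM1, which hands misfolded glycoproteins to degradation, fell by 0.54 ± 0.10 and was 1.01 below DMSO at 48 h. SEL1L, of the same degradation machinery, was below background on the treated arrays, at least 1.38-fold lower, and CRELD2, a stress-induced folding factor, fell by 0.74 ± 0.09.

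Cytosolic heat shock genes were more often lower than higher against DMSO 24 h, and more often higher than lower against DMSO 48 h. Of 26 tested, 2 rose and 10 fell (median -0.26), 19 fell in DMSO (median -0.56), and 15 were higher and 3 lower than in DMSO at 48 h (median 0.42). DNAJA1, an HSP40 chaperone, fell by 1.08 ± 0.06 and HSPA8, the constitutive HSP70, by 0.77 ± 0.07. HSPA1A, the inducible HSP70, read 9.94, 9.61 and 9.74 at DMSO 24 h and 9.86, 9.86 and 10.05 at Siomycin 48 h. These arrays overlapped, and its difference of 0.16 ± 0.09 did not pass the test (adjusted p = 0.15), while it was 1.15 above DMSO at 48 h. BAG3, a cochaperone of selective autophagy, fell by 0.59 ± 0.09. DNAJB6 rose by 0.68 ± 0.09 on its brighter probe, a call lost with median centring (0.24), whereas its second probe fell by 1.70 ± 0.13 (adjusted p = 2.5e-09), and the mean of both had -0.51.

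Most oxidative stress genes rose. Of 28 tested genes of the NRF2 response 19 rose and 1 fell (median 0.66, and 0.22 with median centring). In DMSO 5 rose and 6 fell (median 0.02), and against DMSO at 48 h 22 were higher and 1 lower. HMOX1, which degrades heme, read 6.28, 6.58 and 6.46 at DMSO 24 h and 10.14, 10.14 and 10.18 at Siomycin 48 h. Treated and control arrays did not overlap, and HMOX1 rose by 3.71 ± 0.13, 13.1-fold (adjusted p = 2.4e-14), with 3.27 against DMSO at 48 h. AKR1C3, a steroid and carbonyl reductase, read 8.47, 8.56 and 8.66 against 10.67, 10.70 and 10.58 and rose by 2.08 ± 0.18, with -0.07 in DMSO. GSR, glutathione reductase, rose by 1.23 ± 0.11 and ME1, a source of NADPH, by 1.40 ± 0.15. MAFF and MAFG, small partners of NRF2 on DNA, rose by 2.14 ± 0.20 and 1.70 ± 0.11. NFE2L2, the NRF2 gene, rose by 0.79 ± 0.16, a call lost with median centring (0.25, adjusted p = 0.38), and NFE2L1, the NRF1 gene, by 1.14 ± 0.08. NQO1, a quinone reductase often used as an NRF2 readout, fell by 0.24 ± 0.07 (adjusted p = 0.0081), but had -0.003 on the mean of its probes. KEAP1 was not called (-0.22 ± 0.14).

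Of 12 genes of metal handling 6 rose and 1 fell (median 0.21, which turned to -0.22 with median centring). MT1X, a metallothionein that binds zinc and copper, read 11.46, 11.64 and 11.68 at DMSO 24 h and 13.31, 13.29 and 13.28 at Siomycin 48 h. MT1X rose by 1.70 ± 0.08 (adjusted p = 2.1e-12) against -0.47 in DMSO. MT1G had 0.78 ± 0.10, with -1.45 in DMSO and 2.23 against DMSO at 48 h. SLC30A1, the zinc exporter, rose by 0.71 ± 0.11. With median centring MT1G had 0.19 and SLC30A1 0.07, and neither was called. Metallothioneins are near-identical in sequence, so a probe may read more than its own gene.

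Proteasome subunits moved up and proteasome assembly factors down. Of 42 genes tested, 15 rose and 11 fell, against 20.8% and 28.0% of all genes. Their median was 0.08, which turned to -0.21 with median centring. Of the 13 core subunits 8 rose and 1 fell, and of the 14 regulatory subunits 7 rose and 1 fell. DMSO alone lowered 9 of each, and against DMSO at 48 h 11 core and 13 regulatory subunits were higher with 0 lower in either group. PSMB2, a core subunit, read 11.37, 11.63 and 11.59 at DMSO 24 h and 12.44, 12.43 and 12.41 at Siomycin 48 h. All treated arrays were higher, and PSMB2 rose by 0.90 ± 0.09 (adjusted p = 8.2e-08), with -0.34 in DMSO and 1.23 against DMSO at 48 h. PSMD11, a lid subunit that promotes assembly of the whole particle, rose by 0.77 ± 0.14, although with median centring it had 0.11 and was not called. PSMB6, the caspase-like subunit, rose by 0.61 ± 0.06.

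Of the 8 assembly factors 5 fell and 0 rose. PSMD5, a chaperone of the base, read 7.32, 7.70 and 7.72 at DMSO 24 h and 6.41, 6.16 and 5.79 at Siomycin 48 h. The arrays did not overlap, and PSMD5 fell by 1.46 ± 0.16 (adjusted p = 1.9e-07), with -0.19 in DMSO and -1.27 against DMSO at 48 h. PSMG1, a chaperone of the core ring, fell by 0.80 ± 0.09. Of 7 immunoproteasome subunits and activators 4 fell and 0 rose, among them PSMB8, an interferon-induced subunit, by 0.73 ± 0.14, and PSME3, a nuclear activator, by 0.85 ± 0.10. In the ubiquitin system 2 of 13 genes rose and 6 fell, against 20.8% and 28.0% of all genes. UBE2H, a conjugating enzyme, rose by 1.27 ± 0.17, FAF2, which links VCP to the endoplasmic reticulum, fell by 1.08 ± 0.08, and UCHL5, a deubiquitinase that binds the proteasome, fell by 0.93 ± 0.11.

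**Figure D3:**
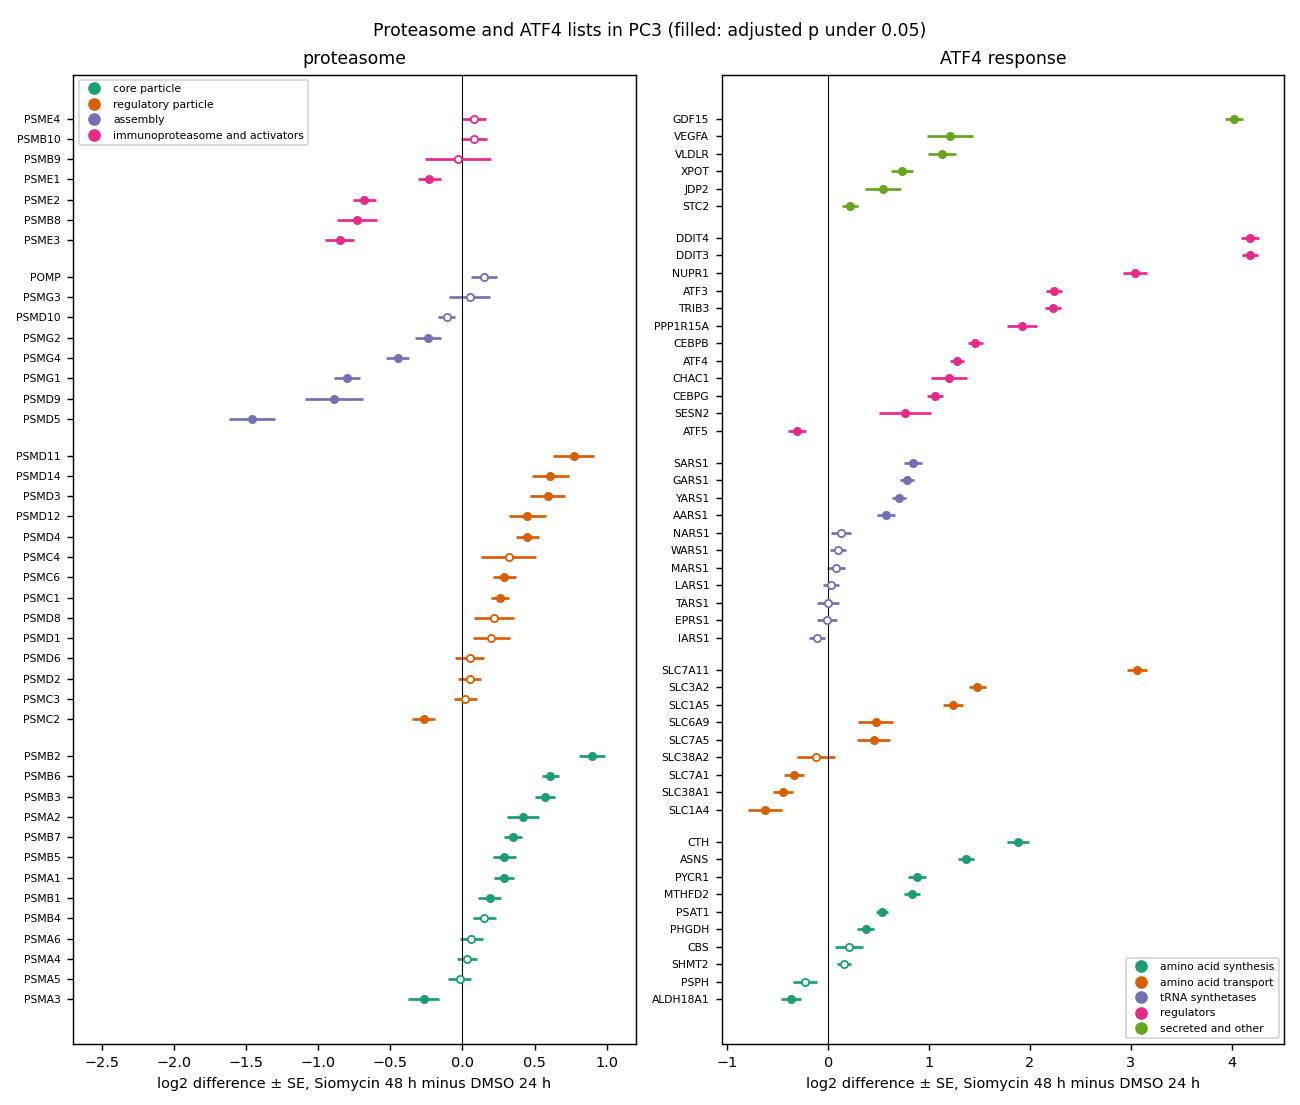
Log2 difference ± SE (x axis, Siomycin 48 h minus DMSO 24 h, 3 arrays each) for each tested gene of the proteasome (left) and ATF4 (right) lists, coloured by role and filled where called. Core and regulatory subunits lay mostly right of 0 and assembly factors mostly left of it, with PSMB2 at 0.90 and PSMD5 at -1.46, a split that with median centring became 3 higher and 14 lower for the whole proteasome list.

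Autophagy genes and lysosomal hydrolases rose. Of 35 genes 22 rose and 3 fell (median 0.51, and 0.00 with median centring), with 13 higher in DMSO and 19 higher and 2 lower against DMSO at 48 h. GABARAPL1, a member of the ATG8 family that coats autophagosomes, read 7.38, 7.26 and 7.40 at DMSO 24 h and 10.54, 10.55 and 10.49 at Siomycin 48 h. The groups were far apart, and GABARAPL1 rose by 3.18 ± 0.09, 9.05-fold (adjusted p = 6.8e-16), with 0.42 in DMSO. SQSTM1, the cargo receptor p62, rose by 1.28 ± 0.09, and CTSD, cathepsin D, by 1.92 ± 0.17. NPC1, which exports cholesterol from lysosomes, rose by 1.36 ± 0.09 with 0.04 in DMSO. ATG7, the enzyme that starts ATG8 conjugation, fell by 0.50 ± 0.09 and BECN1, of the nucleation complex, by 0.34 ± 0.09. Of 9 membrane proteins and proton pump subunits 1 rose and 1 fell, against 20.8% and 28.0% of all genes.

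Glucose and hypoxia genes rose against a falling DMSO background. Of 27 tested 19 rose and 3 fell (median 0.55), 16 fell in DMSO (median -0.41), and 23 were higher than in DMSO at 48 h. With median centring the median of 0.55 became 0.07. ADM, the vasodilator adrenomedullin, read 9.87, 9.71 and 9.83 at DMSO 24 h and 12.17, 12.13 and 12.05 at Siomycin 48 h. Every treated array was higher, and ADM rose by 2.31 ± 0.22 (adjusted p = 4.3e-08), with -0.96 in DMSO and 3.28 against DMSO at 48 h. NDRG1, a stress and differentiation protein, rose by 2.30 ± 0.10, SLC2A1, the glucose transporter GLUT1, by 1.33 ± 0.09, and HK2, hexokinase 2, by 1.36 ± 0.15. HIF1A, which encodes the hypoxia factor, was not called (0.07). LDHA, lactate dehydrogenase A, had -0.17 ± 0.06, a call (adjusted p = 0.034) lost under 8 of 16 alternatives.

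Of 24 tested genes of lipid synthesis 9 rose and 6 fell, against 20.8% and 28.0% of all genes. Their median was 0.12, which turned to -0.36 with median centring. INSIG1, which retains the SREBP complex in the endoplasmic reticulum, read 9.11, 9.08 and 8.93 at DMSO 24 h and 10.92, 10.97 and 10.90 at Siomycin 48 h, a rise of 1.89 ± 0.09 (adjusted p = 8.5e-13). It was 2.19 higher than in DMSO at 48 h. MSMO1, a sterol demethylation enzyme, rose by 1.45 ± 0.12 and HMGCS1, of the mevalonate pathway, by 0.98 ± 0.09. Among fatty acid enzymes 4 of 7 fell, including ELOVL6, an elongase, by 1.08 ± 0.16 and ACLY, which makes cytosolic acetyl-CoA, by 0.77 ± 0.08. SREBF1, the master factor of fatty acid synthesis, fell by 0.66 ± 0.13.

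Immediate early genes and their feedback regulators mostly rose, with 14 of 25 higher and 5 lower (median 0.64, DMSO 0.02). With median centring the median of 0.64 became 0.29. DUSP1, a phosphatase that switches off MAP kinases, read 9.08, 8.90 and 8.94 at DMSO 24 h and 12.16, 12.08 and 12.22 at Siomycin 48 h. No array overlapped, and DUSP1 rose by 3.18 ± 0.09, 9.05-fold (adjusted p = 4.6e-16), with -0.39 in DMSO. KLF2, a zinc finger factor, rose by 2.49 ± 0.11, DUSP5, an ERK phosphatase, by 2.33 ± 0.14, and MYC by 1.36 ± 0.08. EGR1, an early growth response factor, fell by 1.32 ± 0.14, with -1.15 in DMSO alone. SPRED1, an inhibitor of RAS signalling, fell by 1.36 ± 0.15 against 0.45 in DMSO. SPRY4, a related inhibitor, fell by 1.13 ± 0.07 on the probe used, but the mean of its probes had -0.17 and was not called (adjusted p = 0.16).

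In the NF-kB system, 5 of 7 subunits and inhibitors fell and 0 rose. NFKB1, which encodes p105 and p50, read 9.98, 10.02 and 9.98 at DMSO 24 h and 8.58, 8.80 and 8.70 at Siomycin 48 h. NFKB1 fell by 1.30 ± 0.08 (adjusted p = 5.3e-11), with 0.13 in DMSO and -1.43 against DMSO at 48 h. Of 10 cytokines and chemokines 3 were higher and 3 lower, shares near the 20.8% and 28.0% of all genes. CCL26, the chemokine eotaxin-3, read 6.95, 6.83 and 7.17 against 10.34, 10.25 and 10.35 and rose by 3.33 ± 0.14, 10.1-fold (adjusted p = 4e-13), whereas IL1B, a pro-inflammatory cytokine, read 9.09, 9.10 and 9.16 against 7.65, 7.49 and 7.37 and fell by 1.62 ± 0.10. Neither gene's groups overlapped. CXCL2, a neutrophil chemokine, rose by 1.51 ± 0.19.

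Interferon-induced genes rose in DMSO between 24 h and 48 h, and in Siomycin at 48 h many lay below even the 24 h control. Of 38 tested 28 rose and 0 fell in DMSO (median 0.84), 6 rose and 15 fell in the main comparison (median -0.21), and 1 was higher and 32 lower against DMSO at 48 h (median -1.06). For the genes above background on all 24 arrays the median in the main comparison was 0.07, with 6 higher and 6 lower. OAS2, which activates RNA degradation, read 7.63, 7.07 and 6.97 at DMSO 24 h and 5.15, 5.33 and 4.68 at Siomycin 48 h, where 2 of 3 arrays were above background. OAS2 fell by 2.17 ± 0.23 (adjusted p = 1.7e-07), with 1.98 in DMSO and -4.15 against DMSO at 48 h. MX1, a GTPase that blocks viruses, read 9.01, 8.76 and 8.05 against 7.02, 7.39 and 7.09 and fell by 1.44 ± 0.26, with 2.18 in DMSO and -3.62 against DMSO at 48 h. OAS3 and SAMD9, whose promoters are shown above, fell by 1.86 ± 0.25 and 1.68 ± 0.24. IFI44 was an exception, rising by 1.56 ± 0.17 with 0.45 in DMSO. Of 11 genes of MHC class I 5 rose and 2 fell, against 20.8% and 28.0% of all genes. Their median was 0.18, which turned to -0.04 with median centring. HLA-B rose by 0.98 ± 0.12 and HLA-C by 1.14 ± 0.30, genes so alike that their probes may read each other. TAP2, a subunit of the peptide transporter, fell by 0.87 ± 0.14, but its second probe had -0.32 ± 0.28 (adjusted p = 0.4). With median centring HLA-B had 0.32 and HLA-C 0.60, and neither was called.

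**Figure D4:**
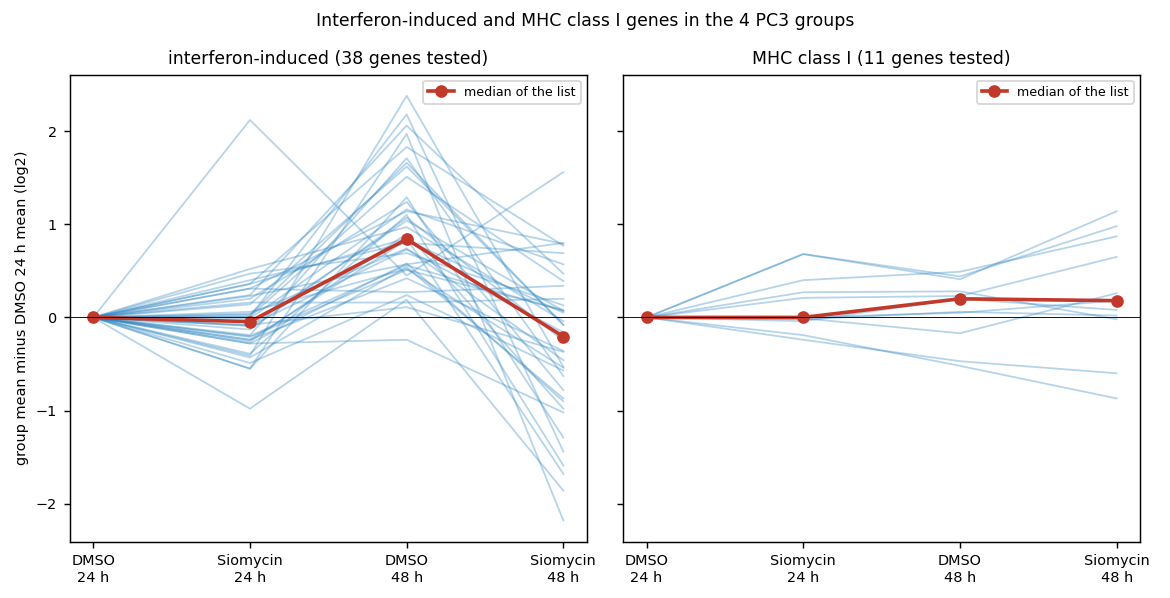
Group mean minus the DMSO 24 h mean (log2) in the 4 PC3 groups, 1 thin line per gene and the list median in red, for 38 interferon-induced and 11 MHC class I genes. The interferon median was 0.84 at DMSO 48 h and -0.21 at Siomycin 48 h, and the MHC class I median was 0.18 at Siomycin 48 h (-0.04 with median centring).

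Histone genes rose by class. Of 7 H2A and H2B genes 6 rose and 0 fell, and of 5 variants 4 fell and 0 rose (list median 0.50, which turned to -0.05 with median centring). In DMSO alone 4 of the H2A and H2B genes rose and all 5 variants fell. H2BC21, an H2B gene, read 8.92, 8.75 and 8.95 at DMSO 24 h and 11.78, 11.59 and 11.69 at Siomycin 48 h. All treated arrays were higher, and H2BC21 rose by 2.82 ± 0.08, 7.04-fold (adjusted p = 4.6e-16), with 0.69 in DMSO. H1-2, a linker histone, rose by 1.85 ± 0.09 and H2AC18 by 1.81 ± 0.10. H2AZ1, a replication-independent variant, fell by 1.04 ± 0.07, and H4C3 fell by 1.06 ± 0.08. Histone genes of a class are near copies and their probes may share signal. Among small nuclear RNA genes, 8 of 13 were higher and 1 lower, against 20.8% and 28.0% of all genes. RNVU1-7, a variant U1 RNA of splicing, read 8.01, 7.88 and 8.05 against 10.95, 10.75 and 10.93. RNVU1-7 rose by 2.90 ± 0.18 (adjusted p = 6.4e-11) with 0.07 in DMSO. U1 copies are near identical too, so U1 genes among the 13 may not be independent.

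Nucleolar genes fell, 9 of 14 with 0 higher. Of 7 RNA polymerase I genes 2 rose and 4 fell, against 20.8% and 28.0% of all genes. NOP56, a core protein of snoRNPs, read 12.47, 12.45 and 12.34 at DMSO 24 h and 11.10, 10.99 and 11.07 at Siomycin 48 h and fell by 1.37 ± 0.10 (adjusted p = 8.5e-10), with -0.51 in DMSO. DKC1, the pseudouridine synthase dyskerin, fell by 1.02 ± 0.09 with 0.09 in DMSO. TAF1D, a factor of RNA polymerase I, rose by 1.53 ± 0.21. Of 30 mitochondrial genes 7 rose and 10 fell, shares near the 20.8% and 28.0% of all genes. Their median was 0.01, which turned to -0.27 with median centring. MRPL44, of the mitochondrial ribosome, had 0.76 ± 0.08 and MRPL15 had -0.74 ± 0.15. Median centring left MRPL44 at 0.15, not called.

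Of 11 genes that promote cell death 7 rose and 1 fell. Of 8 protective genes 2 rose and 3 fell, shares near the 20.8% and 28.0% of all genes. The median of the whole BCL2 family list, death receptors and caspases included, was 0.25 and turned to -0.16 with median centring. PMAIP1, the BH3 protein NOXA, read 7.64, 7.22 and 7.25 at DMSO 24 h and 8.45, 8.74 and 9.04 at Siomycin 48 h. The groups did not overlap, and PMAIP1 rose by 1.37 ± 0.20 (adjusted p = 1e-05), with 1.2 in DMSO. BCL2L11, the BH3 protein BIM, rose by 1.48 ± 0.29 against -0.49 in DMSO, though its second probe had 0.18 (adjusted p = 0.49). BID, another BH3 protein, fell by 1.00 ± 0.11. Other BID probes had -1.02 ± 0.18 (adjusted p = 0.00011) and 0.42 ± 0.26 (adjusted p = 0.2). Among genes known as p53 targets, in a line without functional p53, 5 of 15 rose and 4 fell, against 20.8% and 28.0% of all genes. GADD45A and GADD45B, stress sensors of the MAP kinase pathways, rose by 1.65 ± 0.10 and 1.49 ± 0.15, and XPC, a damage sensor of excision repair, fell by 1.59 ± 0.10.

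Of growth factor genes 4 of 21 rose and 6 fell, shares near the 20.8% and 28.0% of all genes. EGFR, the epidermal growth factor receptor, read 8.35, 8.45 and 8.33 at DMSO 24 h and 9.95, 9.98 and 9.99 at Siomycin 48 h and rose by 1.60 ± 0.11 (adjusted p = 1.8e-10), with 0.58 in DMSO. IGFBP5, which binds insulin-like growth factors, read 10.88, 10.85 and 10.92 against 8.21, 8.37 and 8.20 and fell by 2.62 ± 0.14, with -0.01 in DMSO. In neither gene did an array of 1 group reach the other. Of 21 epithelial and mesenchymal genes 2 rose and 5 fell, against 20.8% and 28.0% of all genes. Their median was 0.09, which turned to -0.47 with median centring. THBS1, the matrix protein thrombospondin-1, fell by 2.07 ± 0.09 and CLDN1, a tight junction claudin, by 1.15 ± 0.18. Of the 10 PC3 markers 3 rose and 5 fell, against the same shares of all genes. CD44 and CAV1, the caveola protein, fell by 1.21 ± 0.09 and 1.07 ± 0.07. ANXA1, GSTP1 and CAV2 rose by 0.60 ± 0.11, 0.47 ± 0.16 and 0.36 ± 0.07. HOXB13, a prostate homeobox factor, read 8.96, 9.04 and 9.11 against 6.93, 7.21 and 7.28 and fell by 1.89 ± 0.11, with 0.37 in DMSO.

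The largest fitted rise was that of GCNT3, a glycosyltransferase of mucin synthesis. GCNT3 read 5.15, 4.77 and 4.87 at DMSO 24 h, where 1 of 3 arrays was above background, and 9.68, 9.69 and 9.68 at Siomycin 48 h. The gene rose by 4.75 ± 0.12 (adjusted p = 9.1e-17), a size set against a control mostly at background, with -0.44 in DMSO. DDIT3, DDIT4, GDF15 and HMOX1 followed. PIM1, a survival kinase, read 6.57, 6.41 and 6.34 against 10.16, 10.10 and 10.06 and rose by 3.67 ± 0.17, 12.7-fold. SAT1, which breaks down polyamines, rose by 3.10 ± 0.07 and FBXO32, a ubiquitin ligase of muscle wasting, by 3.06 ± 0.11. JMY, an actin nucleator, was below background at DMSO 24 h on the probe used and at least 8.89-fold higher at Siomycin 48 h (adjusted p = 3.8e-12). Its second probe was above background on all 6 arrays and had 0.25 ± 0.17 (adjusted p = 0.26). Between 24 h and 48 h with Siomycin, where 39.6% of genes were called, DDIT3, JMY, TCP11L2, H2BC21, GDF15 and FBXO32 rose most among the genes called.

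The largest fall was PHACTR3, which binds actin and protein phosphatase 1 and read 10.83, 10.80 and 10.94 at DMSO 24 h and 6.92, 6.80 and 6.54 at Siomycin 48 h. PHACTR3 fell by 4.10 ± 0.12, 17.2-fold (adjusted p = 1.6e-15), while it rose by 1.03 in DMSO. NCOA5, a nuclear receptor coactivator, read 8.25, 8.26 and 8.44 against 4.80, 5.55 and 5.22, with 1 of 3 treated arrays above background, and fell by 3.13 ± 0.16. PMEPA1, a feedback inhibitor of TGF-beta signalling, fell by 3.07 ± 0.18, the long noncoding RNA LINC00261 fell by 3.03 ± 0.18 and HAS3, a hyaluronan synthase, fell by 2.97 ± 0.12. PFAS, of purine synthesis, fell by 2.91 ± 0.11, BMPR2, a receptor for bone morphogenetic proteins, by 2.80 ± 0.17, and SLC25A13, the mitochondrial aspartate-glutamate carrier, by 2.80 ± 0.13. CTDSP1, a small phosphatase, CDH11, a mesenchymal cadherin, and PRRT3 had -2.68 ± 0.11, -2.64 ± 0.09 and -2.63 ± 0.12. NRP1, a coreceptor for semaphorins and VEGF, fell by 2.73 ± 0.10 on the probe used and rose by 1.77 ± 0.10 on its second probe. Between 24 h and 48 h with Siomycin, BMPR2, UBASH3B, NCOA5, CEMIP2, PMEPA1 and LCMT2 fell most among the genes called, with differences of -2.67, -2.49, -2.44, -2.39, -2.31 and -2.29. Of 409 genes called at 2-fold or more that had a second kept probe, 271 were called in the same direction on it (66.3%).

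The same contrast in LNCaP used 6 other arrays, and the difference of both contrasts was tested directly. LNCaP called 4962 genes (37.2%), 2590 higher (19.4%) and 2372 lower (17.8%). The change in PC3 differed from that in LNCaP for 4899 genes (36.7%). Cell division genes fell in LNCaP too, with medians of -1.26 for mitosis and -1.52 for replication. MELK fell by 1.54 and FOXM1 by 1.26 in LNCaP, each more than in PC3 (adjusted p of the difference 0.0078 and 0.019). For both genes this difference was not refitted under the alternatives, where the PC3 change alone reached -1.545 for MELK and -1.39 for FOXM1. The change of LNCaP in DMSO between 24 h and 48 h was not fitted, so a difference between the lines in culture alone was not tested. The NRF2 list had a median of 0.06 in LNCaP against 0.66 in PC3, the glycolysis and hypoxia list 0.07 against 0.55, and the histone list -0.36 against 0.50. With median centring these PC3 medians were 0.22, 0.07 and -0.05. The LNCaP medians were not computed under that scaling, so how far these list differences depend on it is not known. Some NRF2 genes were at the floor in LNCaP. AKR1C3 was above background on 0 of 3 arrays in both LNCaP groups. MAFF was above it on 0 of 3 at DMSO 24 h and 1 of 3 at Siomycin 48 h. H2BC11, an H2B gene, differed most among histones, with 7.79, 7.84 and 8.04 at DMSO 24 h and 9.67, 9.48 and 9.66 at Siomycin 48 h in PC3, a rise of 1.71 ± 0.16, and a fall of 2.50 in LNCaP.

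GCNT3, PIM1, CCL26 and RNVU1-7 had 0.12, 0.28, 0.22 and -0.01 in LNCaP, none of them called there, against 4.75, 3.67, 3.33 and 2.90 in PC3. In LNCaP, CCL26 was above background on 0 of 3 DMSO 24 h arrays and 1 of 3 Siomycin 48 h arrays. Its 0.22 is therefore a value at the floor and no measure of a missing response. TCP11L2, below background at DMSO 24 h in PC3 and at least 7.39-fold higher at Siomycin 48 h, had -0.24 in LNCaP. H2BC6 rose by 1.78 ± 0.11 in PC3 and fell by 1.11 in LNCaP. CBLN2, a synaptic organiser, was not called in PC3 (0.52 ± 0.24), where 1 of the 6 arrays was above background, and fell by 2.29 in LNCaP. It was called in PC3 without Siomycin 48 h replicate 1 (0.79, adjusted p = 0.012) and also without replicate 3 (0.76, adjusted p = 0.019). On the other side, PHACTR3, PMEPA1, LINC00261 and BMPR2 had -0.04, 0.25, 0.28 and 0.09 in LNCaP. PTPDC1, a phosphatase of ciliary biology, was at least 3.05-fold lower in PC3 and rose by 1.51 in LNCaP. OPLAH, of glutathione turnover, and ACACB, the mitochondrial acetyl-CoA carboxylase, fell by 2.09 ± 0.15 and 2.51 ± 0.19 in PC3, with 0.79 and 0.26 in LNCaP. SERPINA3, a protease inhibitor, was below background on all 6 PC3 arrays and rose by 3.52 in LNCaP.

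**Figure D5:**
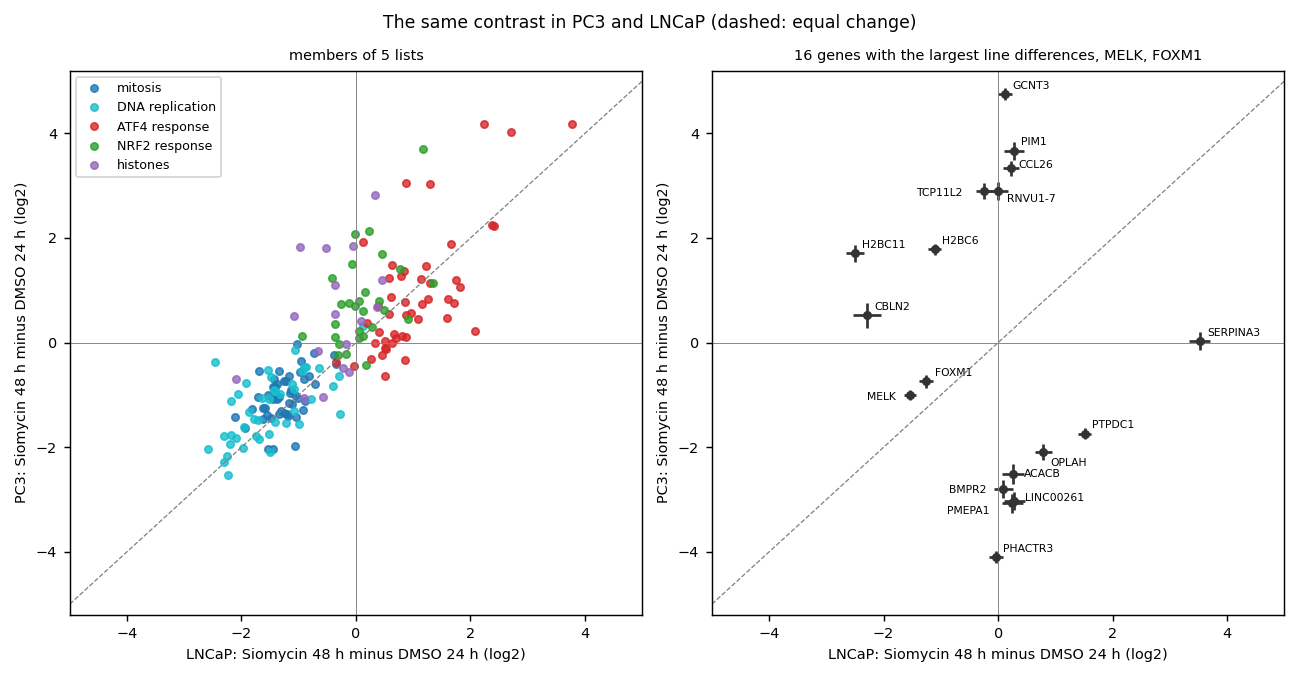
Log2 difference of Siomycin 48 h minus DMSO 24 h in LNCaP (x axis) against PC3 (y axis), for members of 5 lists (left) and for MELK, FOXM1 and the 16 genes with the largest differences between the lines, with ± SE (right). On the dashed line the change is equal in both. GCNT3 stood at 4.75 in PC3 and 0.12 in LNCaP, and PHACTR3 at -4.10 and -0.04. With median centring the NRF2 and histone medians in PC3 were 0.22 and -0.05.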

How the data were processed

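The members and gene lists were chosen with earlier results of these data known. Per the file headers, the authors deposited linear intensities and detection p-values of 47318 probes on 24 arrays. The labels do not say how those deposited p-values were computed, and 3215 to 4216 probes per array had one under 0.01 while dimmer than the background. Per the submitters' processing notes lumi was used, and the authors' log2 table equalled quantile-normalised log2 intensities without background correction to within 5.12e-09.

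From the intensities, the background centre was the median of probes with detection p above 0.9. Signals were corrected with normexp (offset 16), logged and quantile normalised, which understates changes of dim probes. A kept probe had p under 0.01 and signal above the centre on at least 3 arrays, and the kept probe with the highest mean stood for its gene. The gene table named 30119 probes, 30111 with 1 symbol and 8 with several, and 17199 probes of the array were unnamed. limma 3.58.1 (lmFit, eBayes; R 4.3.3) fitted 8 group means over 24 arrays, with two-sided p-values adjusted by Benjamini-Hochberg over all 13344 genes. For a gene below background on every array of a group, "at least" gives the brighter group's mean over, per array, the higher of the lowest signal above background and the gene's own. The number of arrays limits the precision. The fit was tested on simulated data.

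Genes were named by size of change: MELK and FOXM1, per list up to 3 called members without overlap in each direction and members completing a small role group, the 12 largest rises and falls, 8 line differences each way and 6 late changes each way. Some members of a role group that the rule reaches are given by counts only. The deviations of same-numbered PC3 DMSO 24 h and Siomycin 48 h samples had correlations of -0.033, 0.014 and 0.031. These gave no sign of pairing by replicate number. Taken over all genes and between these groups only, they cannot exclude it for some genes or for other groups. Alternatives covered scaling, background, offset, filter, probe choice, arrays fitted, the replicate block and each array left out.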

Additional observations from a re-analysis of the deposited data

Results flagged for a closer look

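The change from DMSO 24 h to Siomycin 48 h differed between PC3 and LNCaP for 4899 of 13344 genes by the test of the difference itself (limma, adjusted p under 0.05). For MELK and FOXM1 the PC3 change minus the LNCaP change was 0.53 and 0.52, values that were not refitted under the alternatives. The differences with the largest positive values were 4.63 for GCNT3, 4.21 for H2BC11, 3.39 for PIM1, 3.15 for TCP11L2, 3.11 for CCL26, 2.91 for RNVU1-7, 2.88 for H2BC6 and 2.82 for CBLN2. Those with the largest negative values were -4.06 for PHACTR3, -3.49 for SERPINA3, -3.32 for PMEPA1, -3.31 for LINC00261, -3.26 for PTPDC1, -2.88 for BMPR2, -2.88 for OPLAH and -2.77 for ACACB.

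For 8 of 198 genes with at least 2 probes called at 2-fold or more, those probes moved in opposite directions, which the use of 1 probe per gene leaves out. They were ARHGAP27, DNAJC12, HIPK2, ICE2, NRP1, TGM2, TRIM9 and ZC3HAV1. The NRP1 probe that was used read 12.07, 12.12 and 12.22 at DMSO 24 h and 9.41, 9.41 and 9.39 at Siomycin 48 h. Its second probe read 10.56, 10.34 and 10.44 against 12.21, 12.18 and 12.27. ZC3HAV1, an antiviral zinc finger protein, had 1.86 and -1.54 on its probes, and HIPK2, a stress kinase, had 1.44, -1.27 and -1.58. Groups of 3 arrays were not tested for outliers.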

How the results depend on the processing

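The 6507 genes called became 5026 to 6714 under the alternatives without an array left out, and 5888 to 6144 with each array left out. The 5026 came from 7618 genes above background on all 24 arrays. Without the filter on dim probes 6340 of 20045 genes were called, and the other settings tested 13344. Median centring gave 678 higher and 6036 lower genes, and 490 genes with a higher change in PC3 than in LNCaP. Limiting calls to 2-fold or more left 1441 genes, 509 higher and 932 lower, and for the line difference 1430, 479 and 951. Median centring turned CDKN1A to -0.033 and PSMA2 to -0.217, neither called. It turned list medians to -0.21 for the proteasome, -0.04 for MHC class I, -0.36 for sterol and fatty acid synthesis, -0.18 for endoplasmic reticulum folding, 0.00 for lysosome and autophagy, -0.22 for metallothioneins and zinc, -0.05 for histones, -0.16 for the BCL2 family, -0.47 for epithelial and mesenchymal genes, -0.27 for mitochondrial genes and 0.02 for LNCaP markers. The median of all tested genes moved with them, from -0.04 to -0.36. Relative to it these lists kept their side, except sterol and fatty acid synthesis (0.16 to 0) and epithelial and mesenchymal genes (0.13 to -0.11). The mean of all kept probes turned SLC38A1 to 0.187 and DNAJB6 to -0.507. Requiring signal on all 24 arrays gave medians of 0.07 for interferon-induced genes and 0.06 for PC3 markers, over fewer genes, and JMY, then read by another probe, was not called (0.248, adjusted p = 0.19). The cause of the other shifts was not tested. Of 218 genes examined 176 stayed on their side of the threshold throughout, 28 lost the call and 11 gained it under some alternative, and 4 turned. The replicate block gave 6529 genes, and 4867 for the line difference, and whether replicate numbers pair the samples is not known. The authors' log2 values gave 6595. Both groups were below background for 887 tested genes, of which 26 were called.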

Other observations

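Gene length was examined after the comparisons. Among 1862 tested genes spanning up to 5 kb in the RefSeq annotation, 5.59% were at least 2-fold higher and 4.35% at least 2-fold lower at Siomycin 48 h. Among 2037 genes of 50 to 100 kb the shares were 3.44% and 8.49%, and among 883 genes over 200 kb they were 2.27% and 7.70%. The median log2 difference was 0.04 in the shortest class and -0.07 in the longest. Neighbouring genes and probes are not independent, and the relation was not tested.

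Of 57 tested genes annotated as microRNAs 10 were higher and 3 lower, and of 378 long noncoding RNAs 52 were higher and 46 lower, against 20.8% higher and 28.0% lower over all tested genes.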
